A study of Mus musculus with 10 samples.

Results

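CA1 pyramidal neuron nuclei with little or no Dcn, the gene of the matrix proteoglycan decorin, made up 2136 of 15661 deposited barcodes of mouse hippocampus, or 13.7% of the 15560 with at least 500 UMIs (95% exact binomial interval 13.2 to 14.3%). A UMI (unique molecular identifier) marks 1 captured transcript molecule. A nucleus was chosen when it held at least 3 UMIs from at least 2 of the CA1 genes Mpped1, Fibcd1, Gm2115, Wfs1, Spink8 and Man1a, and at most 1 Dcn UMI. The CA1 sum also had to exceed the sum of 6 CA2/CA3 genes (Nectin3, Trps1, Cpne4, Ccbe1, Adamts9 and Iyd) and that of 6 subicular and cortical genes (Tshz2, Fn1, Nts, Foxp2, Rorb and Cux2). At most 1 UMI was allowed over Gad1 and Gad2, which mark inhibitory neurons, and at most 1 over Prox1 and Glis3, which mark dentate granule neurons. These measured values chose the nuclei, so levels of the 23 rule genes are given as a description, and no difference from other nuclei is supported by them.

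Single-nucleus RNA sequencing was done on hippocampus of wild-type C57B/6J mice, 4 to 7 months old, that had received no stimulation. All 10 labelled samples are in 1 group, and the titles of 4 call them RNASET2 controls with the same characteristics as the others. A single matrix holds the nuclei of all samples. Its barcodes end in 1 of 7 suffixes, which define barcode sets, and which samples or animals a set came from could not be told from the labels. The data were therefore taken as 1 sample with no replicates. No test was possible, nuclei are not replicates, and every interval below covers counting error only.

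CA1 pyramidal neurons are the main excitatory output cells of the hippocampus proper. They receive CA3 axons through the Schaffer collaterals and direct input from the entorhinal cortex, and they send axons to the subiculum, the cortex and other targets. CA1 is known to vary along its depth and along its long axis, where Dcn is used as a marker of its ventral part. CA2/CA3 pyramidal neurons and dentate granule neurons are the other principal cells of the same structure.

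The barcode sets differed in depth and in content. The chosen nuclei numbered 227, 389, 320, 285, 432 and 483 in sets 1 to 6, and none of the 666 nuclei of set 7 qualified, which allows a share of up to 0.552%. Median UMIs per chosen nucleus were 9426, 11272, 12018 and 12687 in sets 1 to 4, but 3178.5 and 2685 in sets 5 and 6. Over the 666 nuclei of set 7 the median was 1088 UMIs, and no chosen nucleus of any set held fewer than 1268. The part of depth in the absence from set 7 was not tested. Over 5048 genes with at least 500 UMIs in these nuclei, log2 levels of sets 2, 3 and 4 correlated at 0.990 to 0.993 and those of sets 5 and 6 at 0.980, whereas all other pairs of sets gave 0.8995 to 0.9296. Sets 2 to 4, sets 5 and 6, and set 1 thus stand apart from each other, and values are given by set where they differ. Between any pair of sets at most 3 barcode sequences were shared, and none was shared among the chosen nuclei.

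The 6 selection genes were not equally spread. The chosen nuclei held a median of 9 UMIs of these genes, with 3 as the lowest and 99 as the highest value. Exactly 3 UMIs were held by 233 of them, while 356 other nuclei met every criterion except that they held 2. Of the 2136, 2019 had no Dcn UMI and 117 had 1, and just outside the threshold stood 74 nuclei with 2 or 3 and 29 with at least 4. Median UMIs were 6590 in nuclei with no Dcn UMI, 10709 with 1, 13096 with 2 or 3 and 16956 with at least 4. The number of UMIs in a nucleus therefore moved with the Dcn threshold, and its part in the choice was not tested.

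Levels are given as UMIs per 1000000 UMIs of the nuclei summed (CPM). Mpped1, which encodes a metallophosphoesterase domain protein, stood at 266 CPM (258 to 273). Man1a, a mannosidase that trims glycans, was at 831 CPM and the non-coding gene Gm2115 at 313 CPM. Levels of Fibcd1, which encodes an endocytic receptor for acetylated groups, of Wfs1, which encodes the endoplasmic reticulum protein wolframin, and of the protease inhibitor gene Spink8 were 44.6, 20.1 and 36.65 CPM. Spink8 ranged most over the sets, from 19.5 CPM in set 3 to 92.6 CPM in set 1.

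Fibcd1 and Gm2115 vary differently within the chosen nuclei, as described further down, and the 250 bases before their transcription start are shown for that reason. The sequences are from RefSeq on GRCm38.p6 and run 5′ to 3′ on the gene's strand. Fibcd1 lies on the minus strand, with the window at chr2:31846006-31846255, and Gm2115 on the plus strand at chr7:84528724-84528973. No base is in capitals, because none of the motifs searched on both strands occurs in these windows. The motifs were CAGATG, ATGCAAAT and CANNTG, where N is any base.
Fibcd1: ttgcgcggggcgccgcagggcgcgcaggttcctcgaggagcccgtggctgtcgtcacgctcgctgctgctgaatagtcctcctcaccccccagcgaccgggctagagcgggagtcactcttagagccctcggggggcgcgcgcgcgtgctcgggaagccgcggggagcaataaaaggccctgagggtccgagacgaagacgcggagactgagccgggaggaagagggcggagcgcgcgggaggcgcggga
Gm2115: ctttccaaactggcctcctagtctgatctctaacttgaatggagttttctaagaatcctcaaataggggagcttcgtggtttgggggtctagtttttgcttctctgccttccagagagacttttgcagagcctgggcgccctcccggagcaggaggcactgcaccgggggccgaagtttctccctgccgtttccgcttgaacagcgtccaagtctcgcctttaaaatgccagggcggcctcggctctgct
The Fibcd1 window is 71.6% G or C with 34 CpG dinucleotides, and the Gm2115 window is 55.2% G or C with 11. Over all 32851 windows of this length the medians are 52.4% and 6 CpG, 14.4% hold CAGATG, 1.60% hold ATGCAAAT and 66.2% hold CANNTG. The absence of these letters says nothing about the factors that bind them.

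The label was checked against genes that the rule did not use. Excitatory neuron markers summed to 1955 CPM (1636 to 2474 by set), and 95.7% of the nuclei held more than 2 of their UMIs. Slc17a7, the vesicular glutamate transporter of cortical and hippocampal excitatory neurons, was at 248 CPM. Inhibitory markers summed to 60.1 CPM (32.3 to 124 by set), astrocyte markers to 19.2 CPM with Gjb6 at 0, and vascular markers to 3.35 CPM with Cldn5 at 0. Oligodendrocyte markers summed to 242 CPM (95.6 to 285 by set) and microglia markers to 148 CPM (69.2 to 198), against 2174 and 321 CPM in all other nuclei. All 8 oligodendrocyte and all 8 microglia markers were seen, and 799 nuclei held more than 2 UMIs over the markers of non-neuronal cells. Each comparison was repeated without such nuclei, which left 1337 chosen, 23 Dcn-positive, 650 CA2/CA3 and 93 dentate granule nuclei. In dentate granule nuclei the astrocyte marker Slc4a4 was at 959 CPM, of 1026 CPM over all astrocyte markers. Oligodendrocyte markers there summed to 1030 CPM. For that group the filter thus also chose by a gene high in it.

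A further 3 groups of nuclei were set beside the chosen ones. Dcn-positive CA1 nuclei (103) met the same rule but held at least 2 Dcn UMIs. CA2/CA3 nuclei (1483) were chosen by the 6 CA2/CA3 genes in the same manner, and dentate granule nuclei (1503) by at least 3 UMIs of Prox1 and Glis3 with both seen. Median UMIs were 14348, 7103 and 7438, against 6795.5 in the chosen nuclei. A gene with at least 100 UMIs over both sides was counted as higher or lower when the levels differed at least 2-fold, and rule genes were left out of such counts.

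Genes known from CA1 were mostly higher than in CA2/CA3 nuclei. Of 11 genes with enough UMIs in a list of 12 CA1 genes from the literature, 9 were at least 2-fold higher and none lower, with a median log2 ratio of 2.88. Over all 11484 genes counted, 2.73% were higher, 5.58% were lower and the median was -0.03. Against dentate granule nuclei, 9 of the 11 were higher, 1 was lower and the median was 2.72, while 7.22% of 11186 genes were higher, 7.91% lower and the median was -0.07. The list was written with earlier results of these data known.

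Gpr161, a member of that list, is the gene of an orphan receptor of the primary cilium that restrains hedgehog signalling. It was lowest in set 6 at 47.8 CPM, had a median of 68.1 CPM over the sets and was highest in set 1 at 75.2 CPM. Every set was above the 10.49 CPM of CA2/CA3 nuclei and the 2.12 CPM of dentate granule nuclei. The ratio to CA2/CA3 was 6.47 (5.49 to 7.67).

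Pou3f1, a POU domain transcription factor gene at chromosome 4, 124656807 to 124660655, ranged from 18.8 to 65.9 CPM over the sets with a median of 29.4 CPM. CA2/CA3 nuclei held 1.87 CPM, a ratio of 15.7 (10.8 to 23.7), and dentate granule nuclei 1.47 CPM. The level in set 1 was over 3 times that in sets 2 to 4, yet the lowest set was still above both other groups. Without nuclei that held more than 2 UMIs of non-neuronal markers, the log2 ratio of Pou3f1 to CA2/CA3 was 4.72, against 3.98 with them.

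Other transcription factor genes gave a mixed picture. Of 34 counted against CA2/CA3 nuclei, 7 were higher, 2 were lower and the median log2 ratio was -0.08. Of all genes counted there, 2.73% were higher and 5.58% lower. Bcl11b was at 284 against 56.4 CPM and Meis2, a homeobox gene, at 256 against 74.8 CPM. Etv1, Lmo3 and the glucocorticoid receptor gene Nr3c1 were 2.26, 2.11 and 2.17 times as high. Lower were Zfpm2, a GATA cofactor gene, at 150 against 627 CPM, and the nuclear receptor gene Nr2f2 at 12.6 against 27.5 CPM. Zbtb20, a zinc-finger repressor gene required for CA1 identity in development, had a median of 1837 CPM over the sets, from 1585 in set 5 to 2695 in set 1. That was less than the 3852 CPM of CA2/CA3 nuclei and the 4575 CPM of dentate granule nuclei, where the ratios were 0.506 and 0.426.

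**Figure D1:**
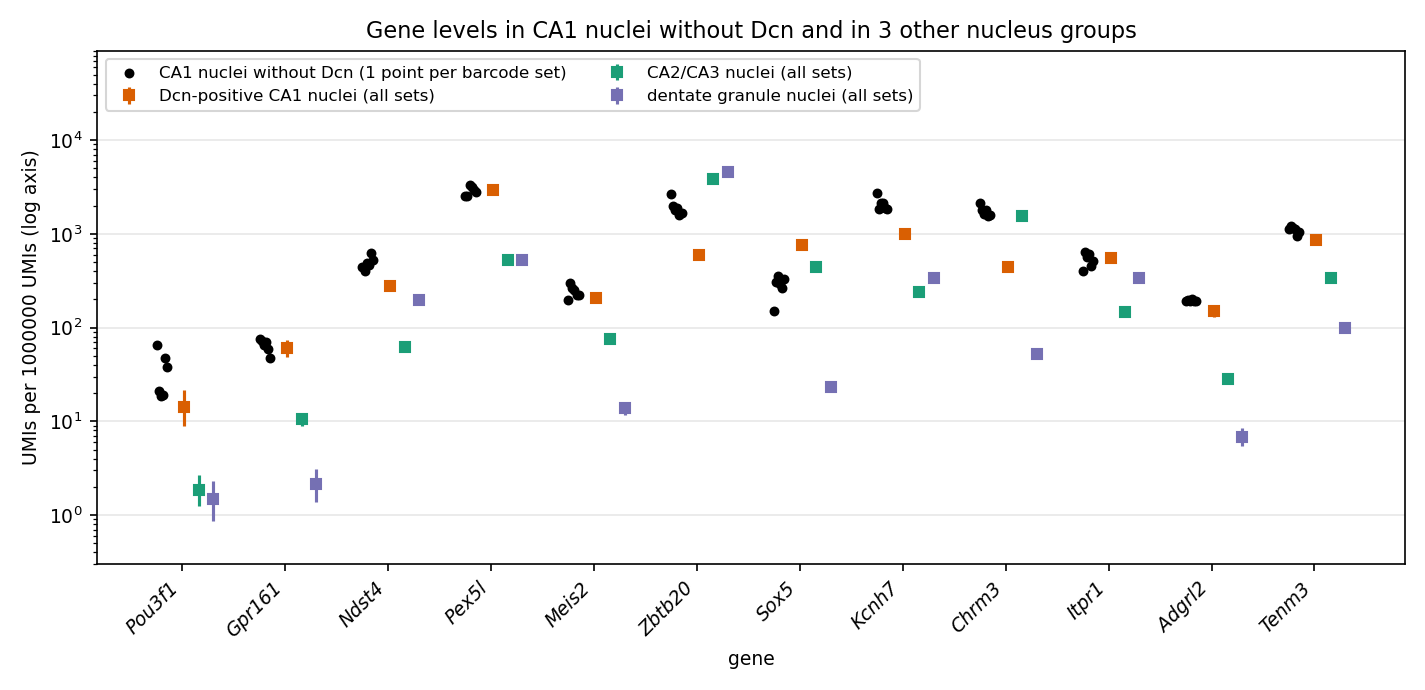
Levels of 12 genes in UMIs per 1000000 UMIs on a log axis. Black points are the CA1 nuclei without Dcn, 1 point for each of 6 barcode sets, and squares are the 3 other groups over all sets with 95% counting intervals. All 6 black points lie above the CA2/CA3 and dentate squares for Pou3f1, Gpr161, Ndst4, Pex5l, Meis2, Kcnh7, Itpr1, Adgrl2 and Tenm3, and below both for Zbtb20.

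Among the genes furthest above CA2/CA3 were Pou3f1 and the 8 that follow. Ndst3 and Ndst4 encode N-deacetylase/N-sulfotransferases that modify heparan sulphate, and they stood at 614 against 76.5 CPM and 468 against 61.9 CPM. Stac, an adaptor gene whose interval had the highest lower bound, was at 132 against 10.4 CPM, a ratio of 12.8 (10.9 to 15.1). The GTPase-activating protein gene Arhgap12 was 10.2 times and the Wnt-binding receptor gene Ror1 9.38 times as high. Egfl6, a secreted matrix protein gene, and Lrmp were at 22.03 and 10.4 CPM, with ratios of 10.4 and 12.5. The eighth was the channel gene Kcnh7, given with the other channels. The same direction in each of the 6 sets was a condition for naming these genes.

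At the other end, Naa11, which encodes an N-terminal acetyltransferase subunit, had no UMI in 2136 nuclei, against 341 UMIs and 21.9 CPM in CA2/CA3 nuclei. Set against a floor of 3 UMIs over the whole group it was at least 133-fold lower, and the exact 95% interval for 0 UMIs begins at 108-fold. Tspan18, a tetraspanin gene, was at 1.59 against 76.9 CPM, or 48.25 times lower (33.4 to 72.4). Dpf3, a subunit gene of BAF chromatin remodelling complexes, stood at 6.32 against 251 CPM, and Smoc2, a secreted calcium-binding matrix protein gene, at 2.91 against 111.5 CPM. The interferon-inducible genes Ifi203 and Mndal were 58.2 and 40.5 times lower. They overlap on the same strand at chromosome 1, 173849126 to 173942672, belong to a family of close copies, and reads may be split between them. Olfr553, Col12a1, Cd109 and Vgll3 completed the 10 lowest, each at 1.04 CPM or less. With every nucleus thinned to 1000 UMIs, where fewer than 3 UMIs of a side were set to 3, the log2 ratios of Naa11, Ifi203, Olfr553, Cd109 and Vgll3 were -1.95 to -4.07, against -4.73 to -7.06, and that of Lrmp was 1.88 against 3.64.

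Ion channel genes separated the groups by single members rather than as a class. Of 35 potassium channel genes counted against CA2/CA3 nuclei, 3 were higher, 7 were lower and the median log2 ratio was -0.02. The shares over all genes were 2.73% higher and 5.58% lower. Kcnh7, an ERG-type channel gene at chromosome 2, 62693414 to 63184287, ranged from 1827 to 2751 CPM over the sets around a median of 2002 CPM. CA2/CA3 nuclei were at 240 CPM and dentate granule nuclei at 337 CPM, so that the lowest set was still above both. Kcnd2, the main subunit gene of the A-type current in CA1 dendrites, was at 4949 against 2341 CPM in CA2/CA3 but at 4647 CPM in dentate granule nuclei. Kcnq5, a subunit gene of the M-current, was lower than in CA2/CA3 (1135 against 4242 CPM) and far higher than in dentate granule nuclei (68.3 CPM).

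Pex5l encodes TRIP8b, an auxiliary subunit that directs ion channels into dendrites. It was at 2909 CPM, which was 5.48 times the level in CA2/CA3 and 5.50 times that in dentate granule nuclei. The sodium channel beta subunit gene Scn3b was 2.20 times the CA2/CA3 level and near the dentate level, at 144 against 146 CPM. Among calcium channel genes the T-type gene Cacna1g was 2.60 times higher and the L-type gene Cacna1c 3.14 times lower than in CA2/CA3. Within 2-fold lay 12 of 14, as did 10529 of all 11484 genes.

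Of 22 glutamate receptor subunit genes counted against CA2/CA3, 20 were within 2-fold, as were 10529 of all 11484 genes. They included Gria1 at 4347 against 3626 CPM and Grin2a at 4663 against 2988 CPM. Outside that range were Grin3a, an NMDA receptor subunit gene, which was 2.14 times higher, and Grik4, the kainate receptor subunit gene of CA3 mossy fibre synapses, at 129 against 1162.5 CPM. Among AMPA receptor partners Cnih3 was 3.70 times higher, while Neto1, which binds kainate receptors, and the TARP genes Cacng2, Cacng4 and Cacng5 were lower. For GABA receptors 4 of 14 were higher, Gabra3, Gabrg3 and Gabrd among them, and none lower. Over all genes 2.73% were higher and 5.58% lower.

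In calcium and cyclic nucleotide signalling, the inositol trisphosphate receptor gene Itpr1 was at 560 against 145 CPM in CA2/CA3, and the kinase gene Itpka, which phosphorylates inositol trisphosphate, at 193 against 40.3 CPM. The calcium buffer gene Calb1 was 3.49 times higher than in CA2/CA3 but 3.18 times lower than in dentate granule nuclei. The adenylyl cyclase genes Adcy1, Adcy2 and Adcy8 were 2.39 to 2.71 times higher than in CA2/CA3, whereas the phosphodiesterase gene Pde4d was 3.13 times lower. Pcp4, the calmodulin-binding gene known from CA2 and the dentate gyrus, was at 2.80 CPM against 6.43 and 22.9 CPM. It overlaps Igsf5 on the same strand.

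Of 26 neuromodulator receptor genes counted against dentate granule nuclei, 10 were higher and 6 lower, where 7.22% of all genes were higher and 7.91% lower. Chrm3, a muscarinic acetylcholine receptor gene at chromosome 13, 9875486 to 10360847, had 1545 CPM in its lowest set, a median of 1724 and 2117 in its highest, against 52.7 CPM. The serotonin receptor genes Htr1f (249 against 24.1 CPM) and Htr2a (32.5 against 1.55 CPM) were also higher than in dentate granule nuclei. Opioid receptor genes Oprm1 and Oprd1 and neuropeptide Y receptor genes Npy1r, Npy2r and Npy5r were lower than in dentate granule nuclei. Against CA2/CA3, 5 of 26 were higher and 3 were lower, the latter Chrm2, Htr7 and Npy2r. The shares over all genes were 2.73 and 5.58%.

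Adhesion and guidance genes followed. Adgrl2 (latrophilin-2), which takes part in choosing entorhinal inputs of CA1, was steady over the sets at 191 to 200 CPM, against 28.0 CPM in CA2/CA3 and 6.85 CPM in dentate granule nuclei. Tenm3, a teneurin gene that guides proximal CA1 axons, was at 1135 against 339 and 99.4 CPM. Of 32 axon guidance genes counted against CA2/CA3, 10 were lower and 2 higher, where 5.58% of all genes were lower and 2.73% higher. The median log2 ratio of the 32 was -0.30. The lower ones included the semaphorin receptor gene Nrp2 (47.5 against 191 CPM), the semaphorin gene Sema5a (8.13 against 116 CPM) and the netrin receptor gene Unc5d (92.0 against 375 CPM).

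The genes furthest above dentate granule nuclei were Cpne8, a copine gene, at 290 against 5.22 CPM and Samd5 at 237 against 4.40 CPM. The glycosyltransferase-like gene Galntl6 was at 5952 against 140.5 CPM and the synaptic vesicle protein gene Sv2b at 399 against 8.73 CPM. Runx1t1, Nell1, Hunk and Khdrbs3 had ratios of 44.9, 29.2, 31.0 and 26.2. Epyc, a proteoglycan gene, rests on 2 UMIs in dentate granule nuclei and had a ratio of 133 (36.6 to 1102). With those 2 UMIs raised to the floor of 3, its log2 ratio was 6.47. On the same scale it was 5.57 without set 2, 3.15 with every nucleus thinned to 1000 UMIs, and 0.54 without nuclei that held more than 2 UMIs of non-neuronal markers, where 93 dentate granule nuclei were left. In the same 93, the log2 ratios of Cpne8, Samd5, Galntl6, Chrm3, Hunk and Khdrbs3 were 4.07 to 4.74, against 4.71 to 5.80 before. Slc4a4, which is high in dentate granule nuclei, is among the markers of this filter. The 93 are therefore a selected part of that group, and the cause of the shifts was not tested. Without set 2, those of Sv2b and Runx1t1 were 6.29 and 6.44, against 5.51 and 5.49.

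The 10 genes furthest below dentate granule nuclei included Dsp, 1 of 5 dentate markers. Slc4a4, a bicarbonate transporter gene, was 89.5 times lower, Sema5a 83.1 times lower and the desmosome gene Dsp 112 times lower (58.7 to 246). The others were Tspan18, Stxbp6, Smoc2, Maml2, Adarb2, Synpr and Ccdc33, with levels 34.7 to 77.1 times lower. Slc4a4 is also in the list of astrocyte markers and Adarb2 in that of inhibitory neurons. With every nucleus thinned to 1000 UMIs, the log2 ratios of Dsp and Ccdc33 were -5.13 and -4.32, against -6.81 and -6.02. All 5 dentate markers were lower, where 7.91% of all genes were, and 231 of the chosen nuclei held more than 2 UMIs of these markers.

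**Figure D2:**
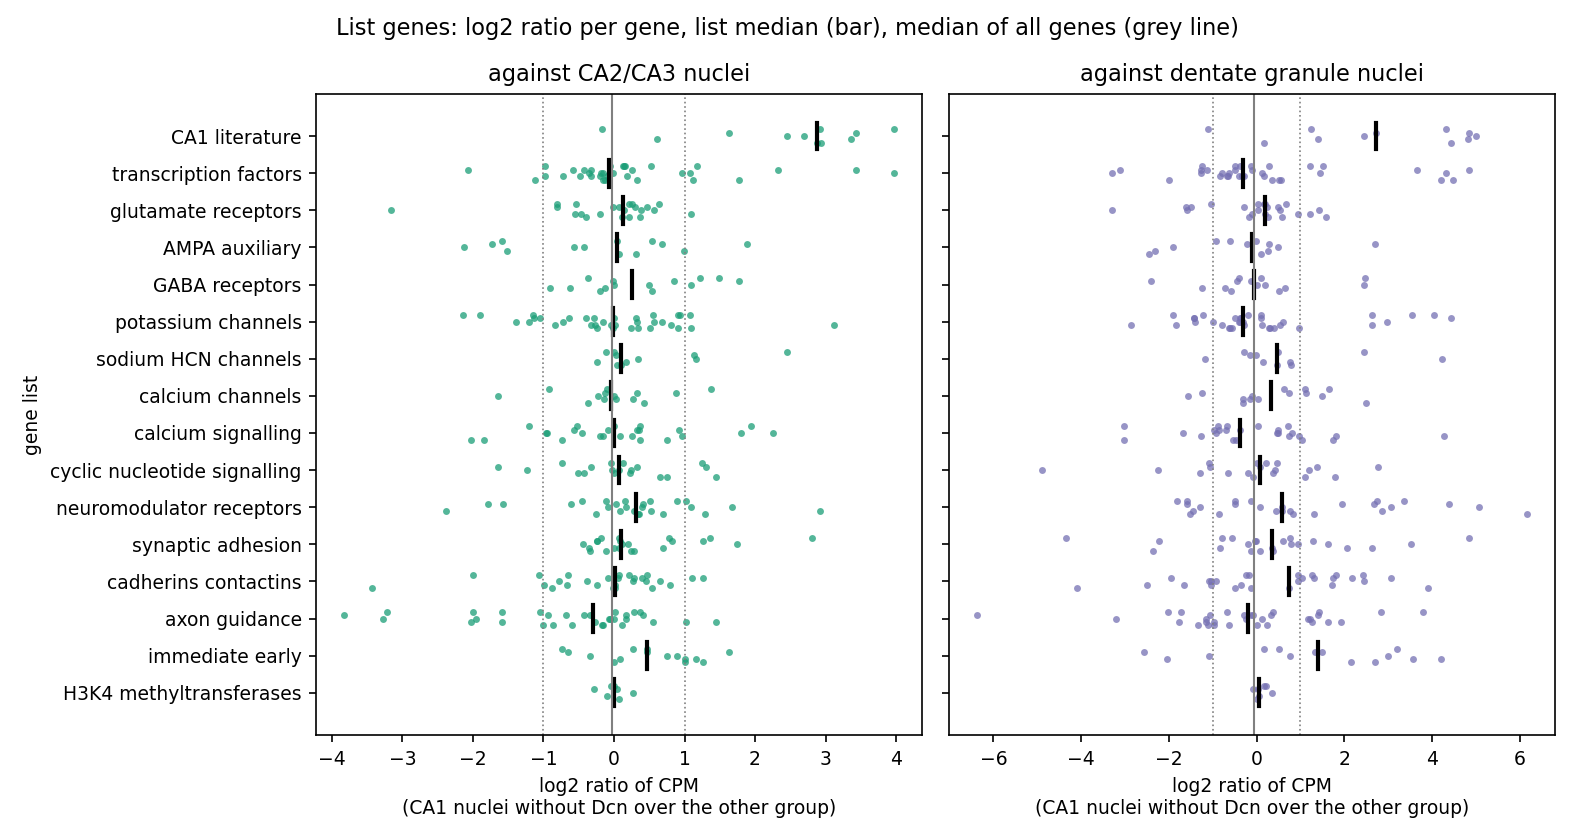
Log2 ratio of CPM of each gene with at least 100 UMIs over both sides in 16 gene lists, the cell type marker lists and the lists of ventral and layer genes left out, for CA1 nuclei without Dcn over CA2/CA3 nuclei (left) and over dentate granule nuclei (right). Black bars are list medians, the grey line is the median of all genes counted and dotted lines mark 2-fold. The CA1 list has medians of 2.88 and 2.72, and the medians of the other lists drawn lie between -0.37 and 1.41.

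The series title concerns SETD1B, a methyltransferase of lysine 4 on histone H3. Setd1b had 300 UMIs in the chosen nuclei, a level of 16.5 CPM (14.7 to 18.5). It was lowest in set 2 at 13.2 CPM, with a median of 16.2 and 32.3 in set 5. Levels in CA2/CA3 and dentate granule nuclei, 20.1 and 17.4 CPM, lay within that range. All 7 H3K4 methyltransferase genes (Setd1a, Setd1b and Kmt2a to Kmt2e) were within 2-fold in each of the 3 comparisons, as were most genes counted (9393 of 10118 against Dcn-positive nuclei, 10529 of 11484 against CA2/CA3 and 9493 of 11186 against dentate granule nuclei). The median log2 ratios were 0.01 or less against CA2/CA3 and Dcn-positive nuclei and 0.07 against dentate granule nuclei.

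The comparison with Dcn-positive CA1 nuclei concerns variation within CA1, and Dcn itself chose the sides. Of 10118 genes counted, 5.0% were at least 2-fold higher in the nuclei without Dcn and 2.16% lower, with a median log2 ratio of 0.03. Of 7 counted genes from a list of 10 ventral CA1 genes, 5 were lower and none was higher, with a median of -1.35. Those 5 were Grp, Gpc3, Htr2c, Nnat and Nr2f2. The Dcn-positive side had 53 nuclei in set 2, 24 in set 3, 19 in set 4, 4 in set 5, 3 in set 6 and none in set 1. Only set 2 therefore allowed a comparison within a set of 50 or more nuclei on each side.

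Gpc3, a heparan sulphate proteoglycan gene, gave unlike values over all sets and within set 2. Over all sets it was 3.43 times lower without Dcn, but within set 2 the ratio was 1.12 in the opposite direction. The part of the sets in this was not tested. Within set 2 the gastrin-releasing peptide gene Grp was 2.85 times lower, the imprinted gene Nnat 2.93 times, the serotonin receptor gene Htr2c 2.27 times and Nr2f2 2.61 times.

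Among the lists of adhesion and guidance genes, 8 of 26 cadherin and contactin genes were lower in the nuclei without Dcn and 2 higher. Of 30 axon guidance genes 4 were lower and 3 higher, and 2 of 22 synaptic adhesion genes went each way. Over all genes counted, 2.16% were lower and 5.0% higher. Unc5d, a netrin receptor gene at chromosome 8, 28646717 to 29219636, ranged from 25.6 CPM in set 4 to 155 in set 2 with a median of 75.9 CPM, all below the 515 CPM of Dcn-positive nuclei. It was 5.596 times lower (5.14 to 6.09), and 4.19 times lower within set 2. Trpc7, a cation channel gene, was at 8.57 against 59.0 CPM and Rxfp1, the relaxin receptor gene, at 8.63 against 48.1 CPM, 6.88 and 5.58 times lower. Galnt14, a glycosyltransferase gene, was 5.69 times and Rgs6, a regulator of G protein signalling, 4.38 times lower. Cdh20 and Pcdh15, both of the cadherin family, were 4.48 and 3.72 times lower, and Tspan9 and the catenin gene Ctnna3 4.28 and 3.75 times. The nuclear receptor gene Pparg was 6.71 times lower over all sets and 2.47 times within set 2, and its log2 ratio of -2.75 was -3.64 without that set. Thinned to 1000 UMIs per nucleus, Galnt14 and Rgs6 had log2 ratios of -3.12 and -2.80, against -2.51 and -2.13.

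Higher in the nuclei without Dcn were 2 neuromodulator receptor genes with many UMIs. Chrm3 was at 1774 against 441 CPM, a ratio of 4.03 (3.73 to 4.35), and no set lay below 1545 CPM. Htr1f was at 249 against 54.5 CPM, a ratio of 4.56 (3.68 to 5.72), and its log2 ratio of 2.19 was 1.46 with every nucleus thinned to 1000 UMIs. In all, 8 of 24 neuromodulator receptor genes were higher, among them Htr1b, Htr2a and Npy5r, and 4 were lower, among them Adra1a at 37.4 against 130 CPM. In Dcn-positive nuclei 10 UMIs of a gene make 6.41 CPM. There Htr1b was at 3.21 CPM, Htr2a and Npy5r at 5.77 CPM, and Chrm2, Adra1d and Npy2r, also counted as higher, at 2.57 CPM. Most of the 8 thus rest on fewer than 10 UMIs of that side. Of all genes counted, 5.0% were higher and 2.16% lower. Zbtb20 was 3.29 times and the presynaptic adhesion gene Nrxn3 2.86 times higher, while Sox5, a transcription factor gene, was 2.60 times lower.

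Luzp2 had a ratio of 7.45 (5.595 to 10.2), at 225 against 30.1 CPM, and its log2 ratio of 2.90 was 4.10 without set 2. Col11a1, a fibrillar collagen gene, had a ratio of 8.17 on 15 UMIs of the Dcn-positive side, and the zinc-finger homeobox gene Zfhx4 one of 4.46. Bcan, Lhfp, Onecut2, Nxph1 and Plekhg1 had ratios of 6.47 to 8.21, each on 6 to 11 UMIs of that side. With every nucleus thinned to 1000 UMIs, where fewer than 3 UMIs of a side were set to 3, the log2 ratios of these 5 were 0.42 to 0.94, and those of Col11a1 and Zfhx4 went from 3.03 to 1.87 and from 2.16 to 1.49. The size of the 5 is thus not determined at that depth. Within set 2, where the same direction was a condition for naming, the 8 genes named here had ratios of 3.65 to 13.0. The Dcn-positive side there held 2 UMIs of Bcan, which had the highest ratio. It held 4 of Nxph1, 6 each of Lhfp and Onecut2 and 9 of Plekhg1. The size of these 5 ratios is therefore not determined within set 2 either.

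**Figure D3:**
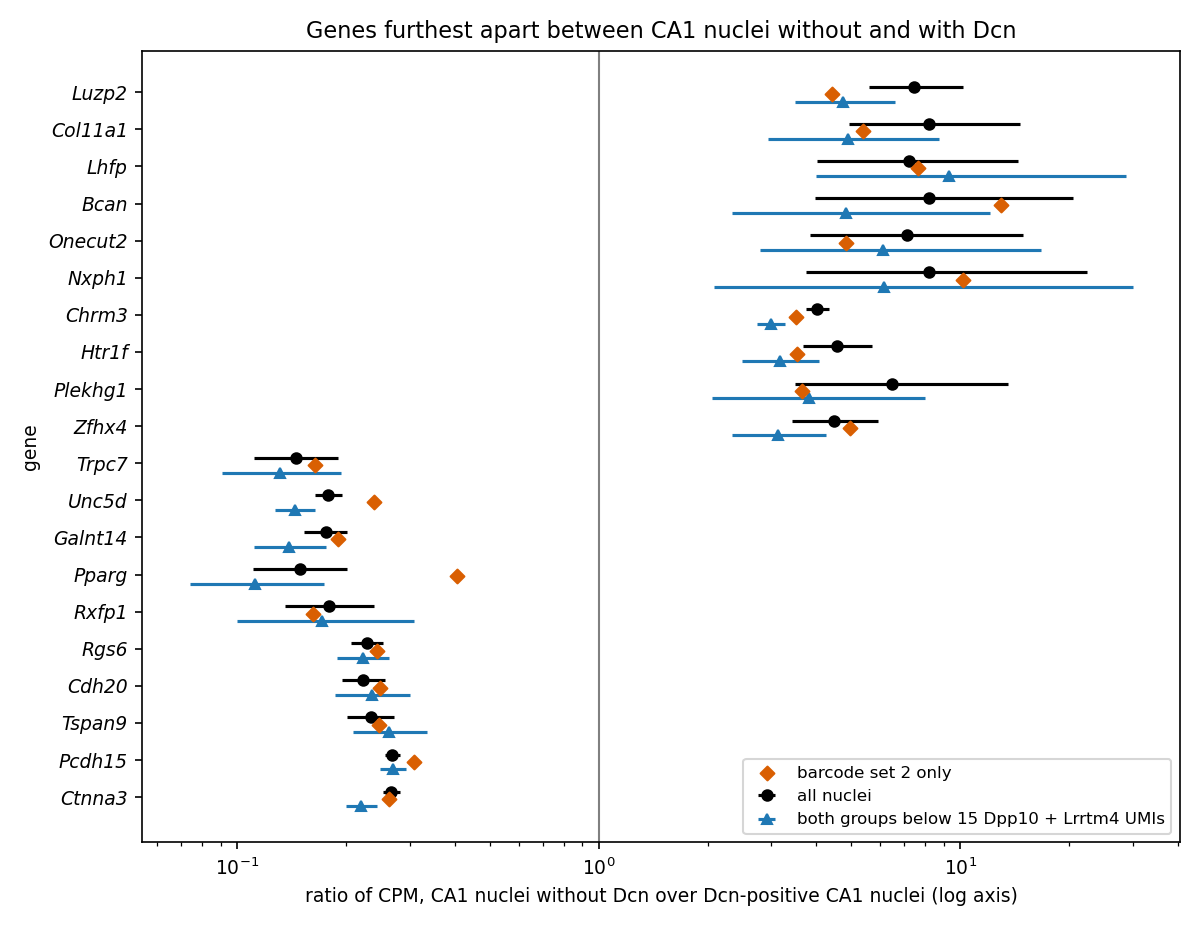
Ratio of CPM in CA1 nuclei without Dcn over Dcn-positive CA1 nuclei, on a log axis, for the 10 genes furthest above and the 10 furthest below 1. Circles are all nuclei with 95% counting intervals, diamonds barcode set 2 alone, and triangles nuclei of both groups below 15 Dpp10 and Lrrtm4 UMIs of 2000. All 3 values lie on the same side of 1 for each of the 20 genes. The direction within set 2 was a condition for naming them, and the triangles use part of the nuclei that chose them. Diamonds have no intervals. Those of Bcan, Nxph1, Lhfp, Onecut2 and Plekhg1 rest on 2 to 9 UMIs of Dcn-positive nuclei.

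Levels also changed within the threshold of the rule. Nuclei with 1 Dcn UMI, which were kept among those without Dcn, had 730 CPM of Zbtb20 against 2045 CPM with no Dcn UMI. Those with 2 or 3 had 802 CPM, and those with at least 4 had 177 CPM. Over the same steps Chrm3 went from 1856 to 758, 557 and 212 CPM, and Pcdh15 from 372 to 1042, 1090 and 2516 CPM. In these 3 genes the 117 nuclei with a single Dcn UMI were near those with 2 or 3. In others they were nearer to the nuclei with none, as in Rxfp1 (8.31, 12.6, 40.6 and 62.9 CPM over the steps) and Gpc3 (14.8, 17.0, 64.8 and 24.8 CPM). With each nucleus thinned to 2000 UMIs, the share of CA1-rule nuclei with a Dcn UMI was 0% of 227 in set 1 (up to 1.61%), 6.35% in set 2 and 2.59 to 3.96% in sets 3 to 6. Dcn was at 5.98 CPM in CA2/CA3 and 1.47 CPM in dentate granule nuclei.

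Variation among the chosen nuclei was described by the Fano factor, the variance over the mean of UMIs, after thinning 2063 nuclei to 2000 UMIs each. Over 5507 genes its median was 1.05, near the value of 1 that counting alone gives. It was high for Ptgds (21.9), Dpp10 (16.2), Lrrtm4 (12.2), Erbb4 (9.43) and Kcnip4 (7.40), followed by Tenm3, Cntn5, Pcdh9 and Nrg1 (5.58 to 5.94). For Ptgds and Erbb4, genes of other cell types, 64.1 and 59.0% of the UMIs lay in 1% of the nuclei. Ptgds was at 2.997 in the 1353 nuclei thinned to 4000 UMIs, where 7 of the 10 highest genes were again among the top 10.

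Dpp10 and Lrrtm4 divided the nuclei, a split chosen after these values were seen. Dpp10, at chromosome 1, 123321471 to 124045559, encodes an auxiliary subunit of Kv4 potassium channels, and Lrrtm4, at chromosome 6, 80018877 to 80810143, a postsynaptic adhesion protein. Of 2000 UMIs per nucleus, 1251 of 2063 nuclei held none of the 2 genes, 476 held 1 to 9, 90 held 10 to 14, 72 held 15 to 19, and the highest sum was 81. At least 15 were held by 246 nuclei, 11.9% (10.6 to 13.4%). The values ran without a gap across 15, so the group is a range of this sum, and whether it is a separate population was not tested. It made up 3.08% of set 1 (1.25 to 6.25%), 11.9, 17.2 and 14.8% of sets 2 to 4, and 10.2 and 12.5% of sets 5 and 6.

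These 246 nuclei went against the label in part. Zbtb20 was at 344 CPM in them against 2268 CPM in the other 1817, Wfs1 at 5.31 against 23.0 CPM and Fibcd1 at 18.3 against 49.0 CPM. Lefty1, a CA1 gene, had 1 UMI, and Chrm3 was at 628 against 2001 CPM. Near the level of the rest were Pex5l (2998 against 2894 CPM), Gpr161 (67.4 against 68.1 CPM) and Kcnh7 (2059 against 2104 CPM). So were Mpped1 (288 against 260 CPM) and Gm2115 (268 against 321 CPM). Mpped1, Gm2115, Wfs1 and Fibcd1 are selection genes, and their sum chose the nuclei. Their levels are in part set by the rule and are given as a description only. The 246 are therefore described by their leading genes and given no cell type name. They held a median of 10057 UMIs, against 7064, and a median of 10 UMIs of the selection genes, against 9. The rule sets a minimum for the sum of the selection genes, so that median is a description too.

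Besides the 2 genes that defined them, the leading genes of these nuclei were the metabotropic glutamate receptor gene Grm8 (893 against 57.4 CPM), the ephrin gene Efna5 (285 against 17.3 CPM) and Rph3a, which encodes rabphilin (82.0 against 5.25 CPM). The kainate receptor subunit gene Grik3, the contactin genes Cntn6 and Cntn5 and the protease gene Pcsk5 were 9.38 to 14.3 times higher. Oprm1, the mu opioid receptor gene, was at 227 against 18.3 CPM, and Ipcef1, which overlaps it on the other strand, at 78.4 against 5.91 CPM. Ctnna3 and Lrrtm3, likewise overlapping on opposite strands, were 9.62 and 10.6 times higher. The lowest were Col11a1 (5.31 against 92.9 CPM), Itpr2, Nell1, the zinc transporter gene Slc30a3 (1.66 against 26.9 CPM) and Bcan. Each of these genes pointed the same way in all 5 sets with 20 or more such nuclei. That agreement is a description, because the split was chosen after these values were seen.

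Some genes of the deep cortex and subiculum moved with the same split. The layer transcription factor gene Fezf2 was at 37.9 against 9.30 CPM and the vesicular transporter gene Slc17a6 at 12.6 against 2.46 CPM. Tshz2 was at 82.0 against 13.5 CPM. It is a rule gene, so its level is in part set by the rule and is given as a description only. For comparison, 1844 other nuclei with at least 5 Tshz2 UMIs held 22.9 CPM of Fezf2 and 41.1 CPM of Slc17a6. After thinning, 53.2% of those held at least 15 Dpp10 and Lrrtm4 UMIs, as did 43.7% of Dcn-positive CA1 nuclei, 10.7% of CA2/CA3 nuclei and 69.6% of dentate granule nuclei. Most leading genes were not particular to the 246. The 1844 nuclei held at least as much Grm8 (955 CPM), Rph3a (98.2 CPM), Grik3 (199 CPM) and Cntn6 (352 CPM). The same held for Cntn5 (2157 CPM), Pcsk5 (254 CPM), Ctnna3 (1328 CPM) and Lrrtm3 (553 CPM). Efna5 (228 CPM), Oprm1 (140 CPM) and Ipcef1 (53.8 CPM) were lower in the 1844 than in the 246. The oligodendrocyte gene Mbp was at 78.4 CPM in the 246 and 87.3 CPM in the rest.

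In steps of the Dpp10 and Lrrtm4 sum the levels changed gradually. Zbtb20 was at 2552 CPM in nuclei with none, 2127 CPM with 1 to 4, 978 with 5 to 14, 570 with 15 to 24 and 167 with 25 or more. Galntl6 went from 7371 to 1056 CPM over the same steps, and Grm8 from 20.2 to 1085 CPM. Tshz2 peaked at 125 CPM in the step of 15 to 24 and was 48.6 CPM in the last. Fibcd1 stayed between 43.9 and 57.1 CPM up to 14 UMIs, then went to 34.0 and 5.93 CPM. Gm2115, its counterpart in the sequences shown above, lay between 238 and 332 CPM throughout, and Mpped1 between 251 and 301 CPM. Fibcd1, Gm2115 and Mpped1 are selection genes and Tshz2 is a gene that the rule caps. The levels of all of them over the steps are therefore in part set by the rule.

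**Figure D4:**
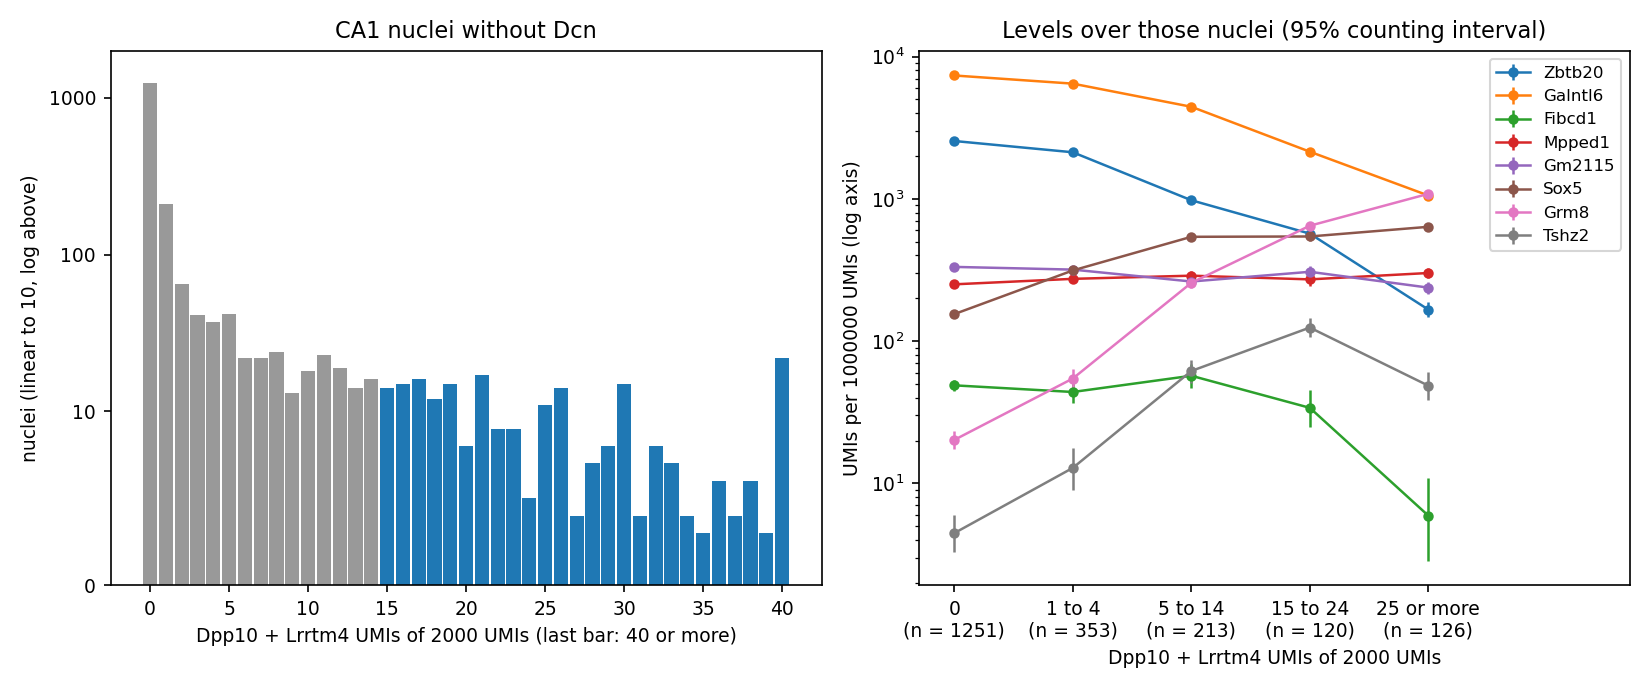
Left, number of CA1 nuclei without Dcn by their Dpp10 and Lrrtm4 UMIs after thinning to 2000 UMIs, with the 246 nuclei at 15 or more in blue. The left vertical axis is linear to 10 and logarithmic above. Right, levels of 8 genes in UMIs per 1000000 UMIs (log axis) over 5 steps of that sum, with 95% counting intervals. Zbtb20 runs from 2552 to 167 CPM and Grm8 from 20.2 to 1085 CPM, while Mpped1, a selection gene, stays between 251 and 301 CPM.

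Across the 2063 thinned nuclei, with set means removed, Zbtb20 correlated at -0.60 with Lrrtm4 and -0.50 with Dpp10, and at 0.49 with Galntl6. Lrrtm4 and Dpp10 correlated at 0.65. These are correlations over nuclei that share libraries, and they are given as a description.

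The Dcn comparison was repeated below 15 Dpp10 and Lrrtm4 UMIs on both sides, with 1817 nuclei against 58. Unc5d was then 6.92 times lower (6.10 to 7.84), Galnt14 7.18 times, Gpc3 6.81 times (5.08 to 9.05) and Pparg 8.90 times. Chrm3 was 2.996 times higher (2.75 to 3.27), Nrxn3 2.90 times and Zbtb20 2.09 times, down from 3.29. Each of the 20 genes named in the Dcn comparison kept its direction. They were chosen as the most extreme in nuclei that include these, so this agreement was in large part fixed in advance.

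Some genes differed widely between barcode sets. In the chosen nuclei 21.9% of 5048 genes had a highest set at least 2-fold above the lowest, and 127 genes (2.52%) at least 4-fold. Gm5624 was at 541, 506 and 526 CPM in sets 2 to 4 and at 2.55, 16.1 and 14.3 CPM in sets 1, 5 and 6. Pnpla1, Xlr5a and Spag5 had the same pattern, and Ptprk (851 to 940 against 122 to 164 CPM) and Glg1 (904 to 999.5 against 152 to 156 CPM) a smaller version of it. Fth1, the ferritin heavy chain gene, was at 456 CPM in set 1 and 50.9 to 161 CPM in the others, the neuropeptide gene Cck at 245 against 35.97 to 119 CPM. Nnat was at 371 and 381 CPM in sets 5 and 6 and at 54.0 to 120 CPM elsewhere. Animal and library cannot be told apart for these sets.

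Immediate early genes, which are induced within minutes of neuronal activity, also went with the set. Arc, a synaptic plasticity gene, was at 101 CPM in set 1 and 40.3 CPM in set 5, but 7.63 to 12.8 CPM in the other 4. Egr1 stood at 45.05 CPM in set 1 and 4.18 to 15.5 CPM elsewhere, and Fos at 11.9 CPM and 0.213 to 6.05 CPM. Of 2000 UMIs per nucleus, at least 2 of 12 such genes were seen in 14.5% of the nuclei in set 1 (10.2 to 19.8%) and 13.5% in set 5 (10.4 to 17.2%). In sets 2 to 4 the share was 2.58 to 4.93% and in set 6 it was 6.15%. In nuclei with 10 or more oligodendrocyte marker UMIs and no Slc17a7, which are not neurons, 0.884% of 1131 reached this level at the same depth. Of 2713 such nuclei before thinning, the median was 1783 UMIs, so that most were too shallow to enter this share.

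Counted over all sets, 8 of 14 immediate early genes were higher than in dentate granule nuclei and 3 lower (Jun, Bdnf and Btg2), where 7.22% of all genes were higher and 7.91% lower. Against CA2/CA3, 5 of 15 were higher and none lower, where the shares were 2.73 and 5.58%. Arc was 18.4 and 2.24 times higher, Nr4a1 11.8 and 2.01 times. Bdnf, the gene of brain-derived neurotrophic factor, was 2.14 times lower than in dentate granule nuclei. Against Dcn-positive nuclei, which come mostly from sets 2 to 4, Arc was 3.735 times higher over all sets and 1.86 times within set 2. Junb was 2.35 and 1.01 times as high, so its difference was not seen within that set.

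**Figure D5:**
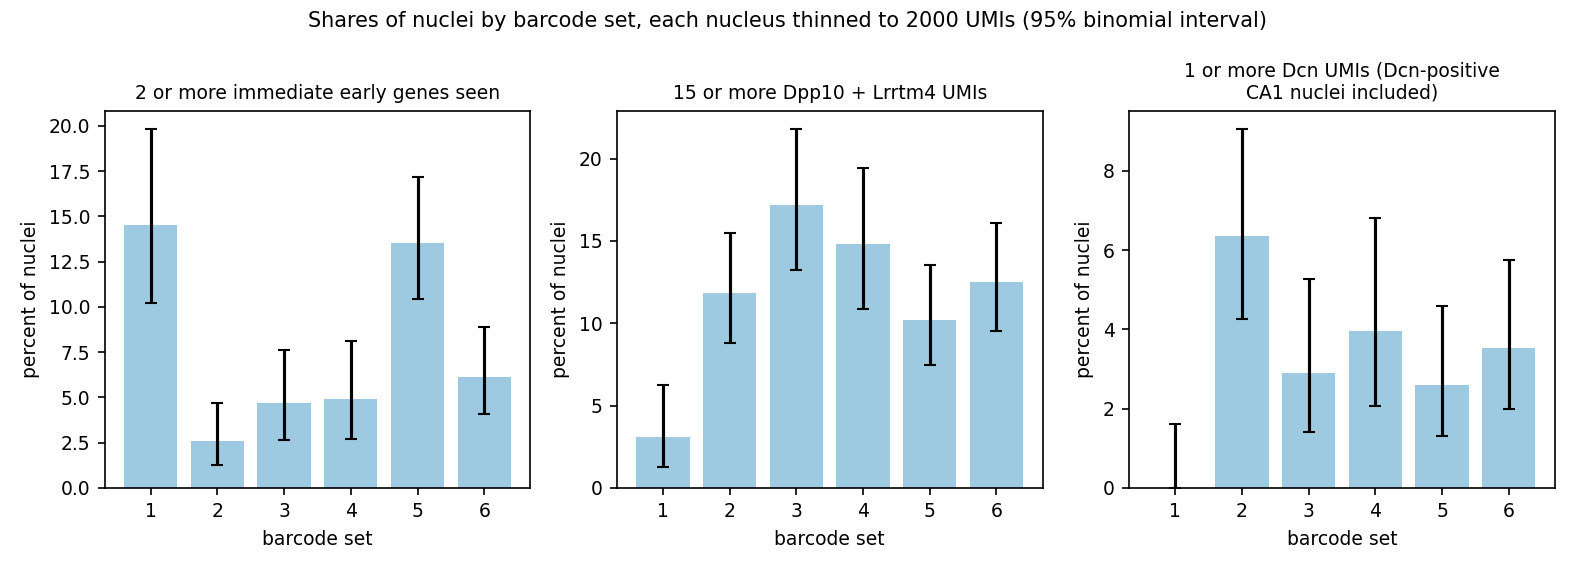
Percent of nuclei by barcode set after thinning to 2000 UMIs, with 95% exact binomial intervals: nuclei with 2 or more of 12 immediate early genes (left), with 15 or more Dpp10 and Lrrtm4 UMIs (middle) and with a Dcn UMI, Dcn-positive CA1 nuclei included (right). Sets 1 and 5 are high on the left at 14.5 and 13.5%, and set 1 is lowest in the other 2 panels at 3.08% and 0%.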

How the data were processed

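Nuclei of 10 labelled samples were counted by the authors with Cell Ranger 4.0.0, per the file headers, and the deposited matrix holds UMI counts of 24837 genes in 15661 barcodes (101300889 UMIs) with no scaling. Builds named in the submitters' processing notes are mm10 and GRCm38. The treatment of intronic reads is not given in the sources used here. Both the members and gene lists were chosen with earlier results of these data known.

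UMIs were summed over nuclei and divided by the total (python 3.11.15, numpy 2.4.6, scipy 1.17.1). Ratios have exact 95% intervals for a pair of Poisson counts, and shares have Clopper-Pearson intervals. The ratio code was tested on simulated data. Named genes had at least 200 UMIs over both sides and the same direction in every barcode set with 50 nuclei on each side. They are the 10 whose interval bound nearest 1 was highest and the 10 whose bound was lowest. Some genes that the rule names are not reported here. The split by Dpp10 and Lrrtm4 and its comparisons were chosen after values were seen. Of 432 list genes 431 were in the file. Coordinates are from GENCODE M21 on GRCm38, to which 24715 gene identifiers matched.

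Doublets were kept. Scrublet in scanpy 1.11.5 called 318 of 15560 nuclei (2.04%), 49 of them members. Under 0.5% were called in sets 2, 5 and 7 (0.0707, 0.495 and 0.300%), so its calls in those sets were judged a failure. Alternatives covered depth, thresholds, scaling, doublets, other-cell markers and each barcode set left out.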

Additional observations from a re-analysis of the deposited data

How the results depend on the processing

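No paired analysis was possible because the nuclei could not be tied to samples. All 1140 log2 ratios of named genes over the alternatives run had the sign of the main value, and 106 moved by over 1.5 times. Naming required the same direction in every set compared, which fixed part of this agreement. Without nuclei with more than 2 UMIs of non-neuronal markers, 1337 members remained in place of 2136. Counts of genes at least 2-fold higher and lower than in Dcn-positive nuclei were then 903 and 350 (main values 506 and 219), and 418 were lower than in CA2/CA3 nuclei (main value 641). The median log2 ratio of oligodendrocyte markers against CA2/CA3 turned from -1.53 to 0.56, by construction, since these genes choose the nuclei left out. With stricter Dcn thresholds 767 genes were higher.

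The minimum of UMIs per gene set the counts. At 500 UMIs they were 119 higher and 92 lower against Dcn-positive nuclei, 261 lower against CA2/CA3, and 458 and 474 against dentate granule nuclei (main values 808 and 885). At 20 UMIs they were 1239 and 552, 487 and 1233, and 1307 and 1410. Thinned to 1000 UMIs, 129 were lower than in Dcn-positive nuclei, 149 and 272 differed from CA2/CA3 and 418 and 385 from dentate granule nuclei, with fewer UMIs to count. Per nucleus without scaling, 111 and 2884 differed from Dcn-positive nuclei, which held more UMIs each, and 173 and 1046 from CA2/CA3. As medians over barcode sets, where set 2 alone counted, 152 and 107 differed from Dcn-positive nuclei. Leaving out any barcode set moved no count by over 1.5 times. Of 1273 list medians 1134 stayed in place, 138 moved and 1 reversed. Depth limits genes of few UMIs on the Dcn-positive side.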
